A study of Mus musculus with 4 samples.

Results

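The CD300 family was followed through expression arrays of dendritic cells from the lamina propria of the mouse colon, the connective tissue layer beneath the gut epithelium. The 7 genes are Cd300a, Cd300lb, Cd300ld, Cd300lf, Cd300lg, Cd300e and Cd300c, chosen by name and found by the RefSeq accession of each probe. All 7 had a probe, 9 probes in all, out of 20637 named genes on the array. The probe listed for Cd300c carries accession NM_134158, which RefSeq now names Cd300c2, with Cd300c as an older symbol, and it is called Cd300c2 here. Of 12 Cd300 genes in RefSeq, 8 had a probe. The eighth was Cd300ld4, a close relative of Cd300ld that is not among the 7 and is given beside it.

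CD300 proteins are surface receptors with a single immunoglobulin-like domain, found mostly on myeloid cells, and several bind phospholipids such as phosphatidylserine, which dying cells expose. Inhibitory members carry ITIM motifs in their tails, which recruit the phosphatases SHP-1, SHP-2 and SHIP-1. Activating members have short tails and signal through adaptors with an ITAM or similar motif, such as DAP12 and the Fc receptor gamma chain. In dendritic cells of the gut, CD300a is known as a receptor that dampens interferon beta production downstream of TLR4.

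The study compared these cells by CD300a genotype and by the presence of gut microbes. CD300a-deficient mice (KO) and wild-type mice (WT), all C57BL/6J, were raised germ-free (GF), without microbes, or specific pathogen-free (SPF), with a normal flora free of listed pathogens. The 4 groups were KO GF and WT GF, both labelled male, and KO SPF and WT SPF, both labelled female, with no treatment named. Each group had 1 array, from colonic cells of 5 mice per condition, sorted by flow cytometry; the sources used here do not give how the deficiency was made, the sort gate or the age of the mice. A level is the log2 processed signal of a probe less the 75th percentile of its array, and a difference is the level in KO minus that in WT, or in GF minus that in SPF. With 1 array per group, a difference between 2 arrays has no replicate check and no test. Errors given with levels and differences are the error of the scanner software on the spot signal, 0.14 on the log2 scale for a bright spot and about 0.20 for a difference, and they do not cover variation between mice, sorts or amplifications.

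Several properties of the arrays bear on every value below. Among named genes 15055 exceeded background clearly on the KO GF array, 14852 on WT GF, 13797 on KO SPF and 14423 on WT SPF. Both GF arrays were on 1 slide and both SPF arrays on another, so housing, slide, scan and labelled sex cannot be told apart. The KO GF array, labelled male, read both Xist and Y-linked genes. Xist read 3.62 there, against a signal not well above background on WT GF, 5.45 on KO SPF and 4.87 on WT SPF. Ddx3y read 0.59 on KO GF and 2.07 on WT GF and was not well above background on either SPF array. Uty, Eif2s3y and Kdm5d were above background on both GF arrays, and among them only Eif2s3y was so on an SPF array, KO SPF. Comparisons without the KO GF array are KO against WT under SPF housing and GF against SPF in WT cells. Of 15 conventional dendritic cell markers with a probe, 14 were above background on each GF array and 15 on each SPF array, with Xcr1 the one missing under GF housing. Cd74, H2-Ab1 and H2-Aa were the brightest of the 15 on every array, at 6.75 to 8.56, and weigh most in their sum. That summed linear level, relative to the 75th percentile, was 485 on KO GF, 797 on WT GF, 1077 on KO SPF and 1062 on WT SPF. All 13 macrophage and monocyte markers were above background on every array, with sums of 355, 669, 653 and 736 in the same order. All 10 epithelial markers were above background on both GF arrays, and 7 on each SPF array, not the same 7. Their sums were 323 and 193 on KO GF and WT GF, against 3.79 and 3.11 on KO SPF and WT SPF.

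Cd300a, the inhibitory receptor targeted in the KO mice, had 1 probe (A_55_P2008297, accession NM_170758). It read 8.05 on KO GF, 7.60 on WT GF, 7.91 on KO SPF and 7.88 on WT SPF. The level was thus no lower on the KO arrays than on the WT arrays of the same housing. The difference was 0.45 ± 0.20 under GF housing and 0.03 ± 0.20 under SPF housing (scanner error), and under quantile scaling, cyclic loess scaling and in the deposited series table the SPF difference was below 0. From low to high the order was WT GF, WT SPF, KO SPF and KO GF, and the last 3 were each within the scanner error of the next. The sources used here do not place the probe inside or outside the deletion. It therefore does not check the genotype labels, and KO and WT below are the labels of the arrays.

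Cd300lf, an inhibitory receptor of the same ITIM class that also serves as an entry receptor for murine norovirus, had 3 probes. The brightest (A_55_P2081164) read 0.34 on KO GF, 0.996 on WT GF, 1.93 on KO SPF and 3.04 on WT SPF. The second (A_52_P422494) read -0.71 on KO GF, 0.06 on WT GF, 1.38 on KO SPF and 2.46 on WT SPF. All 3 probes put the arrays in the same order, KO GF lowest and WT SPF highest, and every step between neighbouring arrays was above the scanner error. KO was lower than WT under both housings, by a log2 difference of -0.65 ± 0.21 under GF and -1.10 ± 0.20 under SPF housing for the brightest probe. GF was lower than SPF in both genotypes, 3.02-fold in KO cells and 4.11-fold in WT cells. The dimmest probe (A_55_P2004511) was not well above background on KO GF and read -3.08 on WT GF, -1.26 on KO SPF and -0.62 on WT SPF. On that probe the KO GF reading was 1.71-fold below WT GF, a log2 difference of -0.77 ± 0.44. It was 6.04-fold below KO SPF, a log2 difference of -2.60 ± 0.40. With KO GF not well above background, neither fold is a firm lower limit. Rab37, a small GTPase gene, overlaps Cd300lf in the RefSeq annotation; its own probe read -2.13 on KO GF, -2.00 on WT GF, -2.50 on KO SPF and -1.91 on WT SPF, without the order seen for Cd300lf.

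**Figure D1:**
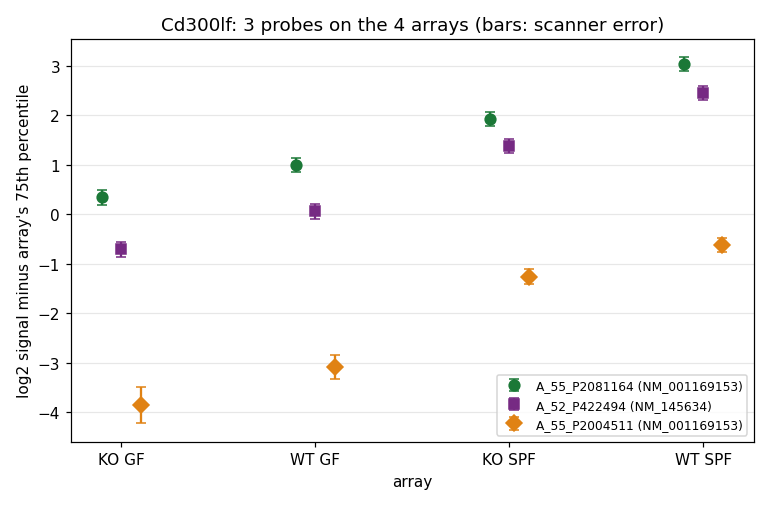
Level (log2 signal minus the 75th percentile of the array, vertical axis) of each of the 3 Cd300lf probes on the 4 arrays (horizontal axis), with bars for the scanner error. All 3 probes are lowest on KO GF and highest on WT SPF; the dimmest probe was not well above background on KO GF.

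The promoter of Cd300lf is shown with those of 4 genes described next, because Cd300lf, Cd300c2, Cd300ld and Cd300lb were at least 2-fold lower under GF housing in KO cells, while Cd300ld4, a close relative of Cd300ld, was not. Capitals mark matches, on either strand, to GAGGAA, a purine-rich core of the kind bound by the myeloid factor PU.1, or to AGGAAGT, a core of the wider ETS family. The 2 motifs overlap wherever GAGGAAGT occurs. Sequences are from RefSeq, the 250 bases before the gene start in build GRCm38.p6, on the minus strand of the chromosome and written 5′ to 3′ in the direction of the gene. Cd300lf lies at chr11:115133993-115134242, Cd300c2 at chr11:115001881-115002130, Cd300ld at chr11:114989887-114990136, Cd300lb at chr11:114934372-114934621 and Cd300ld4 at chr11:115026934-115027183.
Cd300lf: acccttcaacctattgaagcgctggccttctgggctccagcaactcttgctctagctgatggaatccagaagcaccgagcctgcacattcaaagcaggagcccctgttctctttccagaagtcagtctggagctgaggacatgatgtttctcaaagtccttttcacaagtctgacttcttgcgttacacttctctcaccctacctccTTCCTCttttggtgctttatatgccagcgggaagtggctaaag
Cd300c2: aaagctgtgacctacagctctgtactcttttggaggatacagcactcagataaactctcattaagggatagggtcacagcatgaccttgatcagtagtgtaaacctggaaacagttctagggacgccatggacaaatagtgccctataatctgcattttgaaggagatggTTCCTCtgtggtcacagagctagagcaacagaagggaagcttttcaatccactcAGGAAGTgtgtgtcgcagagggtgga
Cd300ld: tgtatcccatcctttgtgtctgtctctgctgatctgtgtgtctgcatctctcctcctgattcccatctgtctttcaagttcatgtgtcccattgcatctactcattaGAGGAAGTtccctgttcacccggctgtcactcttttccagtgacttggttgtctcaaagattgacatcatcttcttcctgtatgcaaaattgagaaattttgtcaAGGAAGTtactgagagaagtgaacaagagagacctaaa
Cd300lb: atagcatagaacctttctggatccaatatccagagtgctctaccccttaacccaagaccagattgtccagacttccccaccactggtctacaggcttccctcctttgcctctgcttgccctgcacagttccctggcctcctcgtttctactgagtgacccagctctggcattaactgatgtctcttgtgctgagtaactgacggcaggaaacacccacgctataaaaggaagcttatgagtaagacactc
Cd300ld4: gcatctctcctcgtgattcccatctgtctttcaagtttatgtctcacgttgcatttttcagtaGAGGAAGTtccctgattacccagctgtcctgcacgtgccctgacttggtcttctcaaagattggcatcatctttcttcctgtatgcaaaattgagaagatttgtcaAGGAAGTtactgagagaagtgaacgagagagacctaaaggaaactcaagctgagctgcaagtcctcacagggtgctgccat

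GAGGAA was found in 7 of 10 Cd300 promoters in the RefSeq table and AGGAAGT in 6 of 10. Cd300ld, Cd300ld3, Cd300ld4 and Cd300ld5, whose promoters are near copies, are in both counts, so the 10 promoters are not independent. Of 32851 mouse promoters of the same length, with 1 chromosome left out, 23.3% held GAGGAA, 7.69% held AGGAAGT and 3.67% held both. Cd300lf held 1 GAGGAA match, Cd300c2 held 1 of each motif, and Cd300ld and Cd300ld4 each held 1 GAGGAA and 2 AGGAAGT matches. Cd300lb, also lower under GF housing in KO cells, held 0 of either motif, and Cd300a, with no 2-fold difference, held 1 GAGGAA match. The Cd300ld and Cd300ld4 promoters were identical at 86.5% of 208 aligned columns. These are matches of letters, not sites shown to be bound. The promoter of Cd300ld5 was identical to that of Cd300ld4 over all 250 bases, and that of Cd300ld3 matched it at 95.5% of 246 columns.

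Cd300c2, an activating receptor that pairs with DAP12 and the Fc receptor gamma chain, followed the same order of arrays as Cd300lf. Its probe (A_55_P1978216) read 0.91 on KO GF, 2.68 on WT GF, 3.04 on KO SPF and 3.76 on WT SPF. Each step in that order was above the scanner error, and the widest was between KO GF and the other arrays. KO was 3.40-fold lower than WT under GF housing, a log2 difference of -1.77 ± 0.20, and 1.65-fold lower under SPF housing, a log2 difference of -0.72 ± 0.20. GF was 4.39-fold lower than SPF in KO cells and 2.12-fold lower in WT cells.

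Cd300ld, an activating receptor that pairs with the Fc receptor gamma chain, varied most over the 4 arrays, with a 9.77-fold range. Its probe (A_55_P1983523) read -2.07 ± 0.18 on KO GF, 0.52 on WT GF, 1.22 on KO SPF and 0.96 on WT SPF. The KO GF array stood apart, while the other 3 arrays lay between 0.52 and 1.22. Under GF housing KO was 6.04-fold lower than WT, a log2 difference of -2.60 ± 0.23, and 0.535% of all measured genes had a difference that low or lower. Under SPF housing the difference was 0.25 ± 0.20. The genotype difference under GF minus that under SPF was -2.85 ± 0.31; it has no test, because it rests on 4 single arrays. GF was 9.77-fold lower than SPF in KO cells, a log2 difference of -3.29 ± 0.23, while the difference in WT cells was -0.44 ± 0.21. The KO GF spot was dim, with a signal of 49 ± 6.1 (scanner error), and the size of these differences depended on the processing. Under normexp on median signals KO minus WT under GF housing was -1.53, and GF minus SPF in KO cells was -2.14.

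The Cd300ld4 probe (A_55_P1960693) did not share this pattern. It read 2.88 on KO GF, 2.38 on WT GF, 3.17 on KO SPF and 2.80 on WT SPF. KO was above WT under both housings, with differences of 0.50 ± 0.20 under GF and 0.37 ± 0.20 under SPF housing. Cd300ld, Cd300ld3, Cd300ld4 and Cd300ld5 are close relatives, no probe sequences were used here, and how far each probe also reads the others was not tested.

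Cd300lb, an activating receptor that pairs with DAP12, read -0.48 on KO GF, -0.02 on WT GF, 1.25 on KO SPF and 0.60 on WT SPF (probe A_65_P13459). All steps in the order KO GF, WT GF, WT SPF and KO SPF were above the scanner error, and the genotypes changed places between housings. KO was below WT under GF housing, with a difference of -0.46 ± 0.21, and above it under SPF housing, with 0.66 ± 0.20. GF was 3.32-fold lower than SPF in KO cells and 1.53-fold lower in WT cells.

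Cd300e, which in human monocytes pairs with DAP12, read 0.77 on KO GF, -0.21 on WT GF, 0.13 on KO SPF and 0.31 on WT SPF (probe A_51_P312035). It was the one activating gene that was highest on KO GF, and the 2 SPF arrays were within the scanner error of each other. The KO minus WT difference was 0.98 ± 0.21 under GF and -0.18 ± 0.21 under SPF housing. The GF minus SPF difference was 0.63 ± 0.21 in KO cells and -0.52 ± 0.21 in WT cells.

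Cd300lg, known as nepmucin, is a member of vascular endothelium and lies outside the gene cluster of the others. Its probe (A_55_P2009953) read 7.10 on KO GF, 6.57 on WT GF, 7.36 on KO SPF and 7.28 on WT SPF. Only the step from WT GF to KO GF, the next array in rising order, was above the scanner error. Of 12 endothelial markers, 11 were above background on KO GF, 12 on WT GF, 11 on KO SPF and 11 on WT SPF, with sums of 12.1, 19.9, 9.90 and 12.7 in that order. WT GF thus had the highest endothelial sum and the lowest Cd300lg level. Whether this probe reads transcripts of these cells was not tested.

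**Figure D2:**
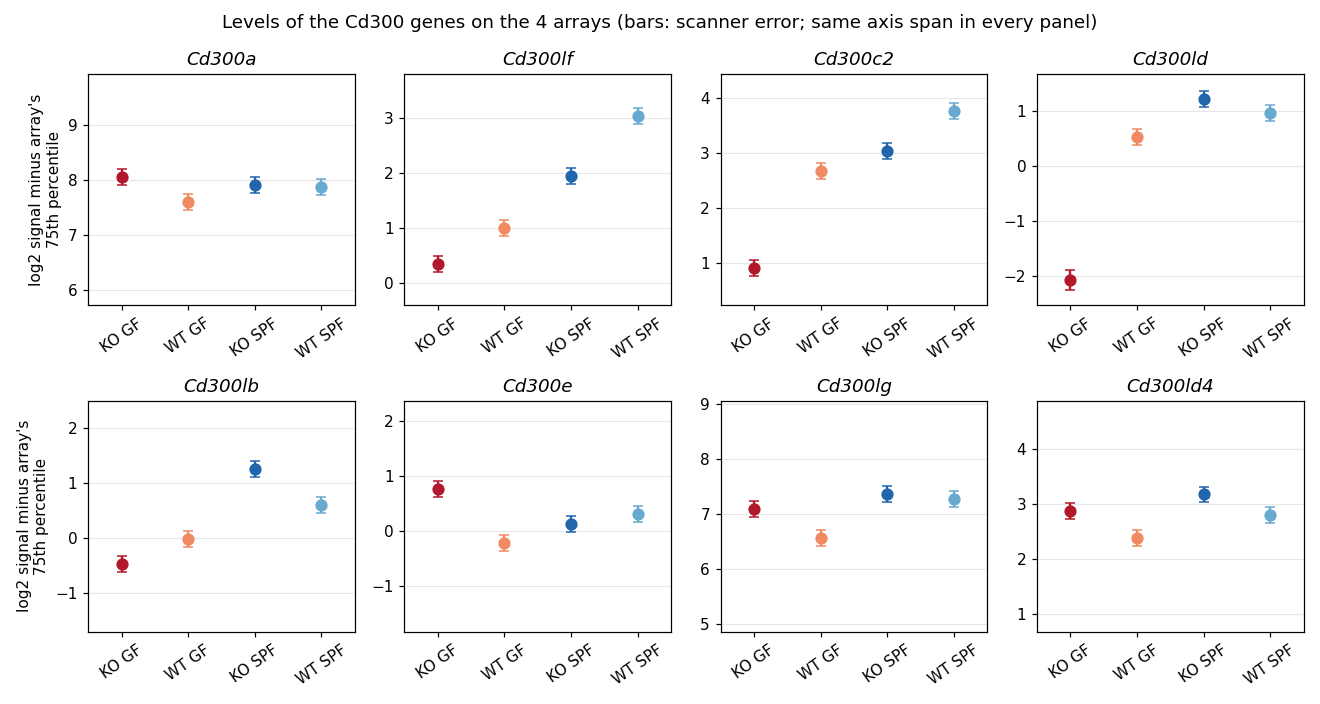
Levels (log2 signal minus the 75th percentile of the array, vertical axes of equal span) of the 7 Cd300 genes and Cd300ld4 on the KO GF, WT GF, KO SPF and WT SPF arrays, with the scanner error as bars. Cd300ld and Cd300c2 are lowest on KO GF, Cd300lf climbs in steps to WT SPF, and Cd300a and Cd300lg span less than 1 log2 unit.

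Under GF housing the KO array was lower than WT for 2 of the 7 genes by at least 2-fold, Cd300c2 and Cd300ld, and no member was 2-fold higher. Cd300e came nearest to 2-fold higher. Over all 15697 genes measured in this comparison, 7.77% were at least 2-fold lower and 8.8% at least 2-fold higher. The median difference was -0.46 over the 7 genes and -0.20 over all genes. Macrophage and conventional dendritic cell markers also summed lower and epithelial markers higher on KO GF than on WT GF. Of 7 neutrophil and eosinophil markers measured, 4 were at least 2-fold lower in KO and 1 higher (median -1.03), and of 12 endothelial markers 6 were lower and 0 higher (median -1.03). The sum of all 10 neutrophil and eosinophil markers, of which Csf3r was the brightest, went the other way, with 262 on KO GF and 200 on WT GF. The part of these lists in the Cd300 differences was not tested. In these bulk samples fewer cells of a type and less RNA per cell cannot be told apart.

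Under SPF housing 1 of the 7 genes, Cd300lf, was at least 2-fold lower in KO and none was 2-fold higher. Among all 14877 genes measured, 6.61% were at least 2-fold lower and 5.61% at least 2-fold higher, and a count of 1 among 7 genes is no result about the family. The median difference was 0.03 over the members and -0.06 over all genes. The difference of Cd300lf was -1.10 for the brightest probe, -1.08 for the second and -0.64 for the dimmest, and with the mean of all its probes in place of the brightest no member reached 2-fold. The summed macrophage level was 653 on KO SPF and 736 on WT SPF, and the summed conventional dendritic cell level 1077 and 1062. Of 10 neutrophil and eosinophil markers, 5 were at least 2-fold lower in KO and 1 higher (median -1.03), and of 8 B and plasma cell markers 5 were higher and 0 lower (median 1.84). The part of these lists in the lower Cd300lf level was not tested.

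The lower levels under GF housing involved more members. In KO cells 4 of the 7 genes were at least 2-fold lower in GF than in SPF, namely Cd300c2, Cd300lb, Cd300ld and Cd300lf, and none was 2-fold higher. Over all 15572 genes measured, 15.4% were at least 2-fold lower and 21.6% at least 2-fold higher. The median difference was -1.59 over the members and 0.05 over all genes. In WT cells 2 of the 7 genes, Cd300c2 and Cd300lf, were at least 2-fold lower and none was 2-fold higher, against 9.44% and 17.5% of 15656 genes. There all 7 differences were below 0, with a median of -0.62 over the members and 0.13 over all genes. Both housing comparisons share their arrays with the genotype comparisons, and among the cell type lists the epithelial markers had the widest median difference in both, 4.98 in KO and 4.62 in WT cells. Other lists were lower under GF housing: 7 of 9 neutrophil and eosinophil markers were at least 2-fold lower in each genotype and 1 was higher, with medians of -2.44 in KO and -2.26 in WT cells. B and plasma cell markers were lower for 6 of 8 in KO and 5 of 7 in WT cells and higher for 1 in each, with medians of -3.33 and -1.90. Named after their values were seen, the neutrophil gene Retnlg and the eosinophil genes Siglecf and Ccr3 had the array order of Cd300lf and Cd300c2. Retnlg read -1.03 on KO GF, 1.07 on WT GF, 2.24 on KO SPF and 3.48 on WT SPF, and Siglecf read -1.82, -0.78, 0.22 and 1.47 on the same arrays. S100a9, a neutrophil gene, had that order too but was not well above background on KO GF. The order was not confined to that list. The macrophage and monocyte genes Ccr2, Cx3cr1, Adgre1, Fcgr1 and C1qa, also named afterwards, had it. The rest of the macrophage and monocyte markers, Mertk, Csf1r, C1qb, C1qc, Cd14, Mrc1, Cd163 and Lyz2, did not. Cx3cr1 read 5.36 on KO GF, 5.98 on WT GF, 6.15 on KO SPF and 6.62 on WT SPF. Among neutrophil and eosinophil markers, Mmp9, Csf3r, Prg2, S100a8 and Epx lacked that order. S100a8 was well above background only on WT SPF, and Epx only on KO SPF. Cxcr2 had the order, with neither GF array well above background. Mmp9 read 0.91, 1.95, -1.67 and -0.86 on the same arrays. The part of all these lists in the Cd300 levels was not tested.

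**Figure D3:**
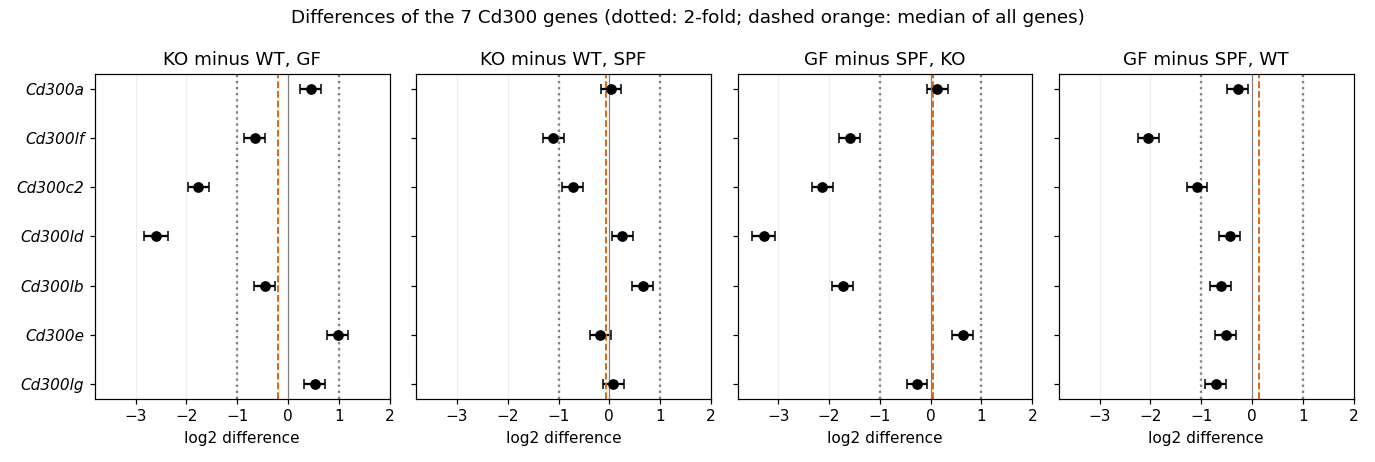
Log2 differences (horizontal axis) of the 7 Cd300 genes in each of the 4 comparisons, with the scanner error of the difference as bars, dotted lines at 2-fold and a dashed line at the median of all genes. Cd300ld and Cd300c2 lie beyond 2-fold lower in KO minus WT under GF, and Cd300lf lies beyond it in GF minus SPF in both genotypes.

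A limma fit on all 4 arrays, over 15029 genes above background on at least 2 arrays, put housing and genotype in 1 model. Its single residual degree of freedom is the genotype by housing interaction, so that its errors measure no spread between replicates. For housing, 3 of the 7 genes were called lower in GF at an adjusted p of 0.05 and none higher. Of all 15029 genes, 781 were called lower and 1708 higher, 16.6% in either direction. Cd300lf had a log2 effect of -1.82 ± 0.39 (SE, adjusted p = 0.00791), Cd300c2 one of -1.61 ± 0.42 (adjusted p = 0.0216) and Cd300ld one of -1.86 ± 0.57 (adjusted p = 0.0468). All 3 were lower in GF than in SPF in both genotypes. For Cd300ld the difference was -3.29 in KO cells, where the KO GF spot was dim, and -0.44 in WT cells. Over 6 other settings the adjusted p of Cd300lf ran from 1.22e-05 to 0.0522, with 5 calls, and that of Cd300c2 from 0.000434 to 0.0685, with 4 calls. The adjusted p of Cd300ld ran from 9.51e-05 to 0.154, with a call in 1 of the 6. Cd300lb had an effect of -1.17 ± 0.42 that was not called (adjusted p = 0.0837); over the 6 settings its adjusted p ran from 0.0097 to 0.152, with 2 calls.

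For genotype, limma called 0 of the 7 genes, against 20 of all genes (0.133%) and 954 at an unadjusted p under 0.05. At that unadjusted level 2 members stood, Cd300c2 with a log2 effect of -1.24 ± 0.42 (SE, adjusted p = 0.493) and Cd300lf with -0.88 ± 0.39 (adjusted p = 0.766). Both were lower in KO in 2 of 2 housings. Cd300ld, with opposite signs under the 2 housings, had an effect of -1.17 ± 0.57 (adjusted p = 0.843).

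The partners of these receptors were examined in a list of 21 adaptors, kinases and phosphatases of CD300 signalling, all with a probe. Under GF housing 0 were at least 2-fold higher and 2 lower in KO, with a median difference of -0.62, beside 8.8% higher, 7.77% lower and a median of -0.20 over all genes. These were the Src-family kinase Fgr (-1.30) and the phosphatase gene Ptpn6 (-1.19), which encodes SHP-1. Under SPF housing 1 was higher, Pik3r1 (1.05), a regulatory subunit of phosphoinositide 3-kinase, and 0 were lower, with a median of -0.05, beside 5.61% higher, 6.61% lower and a median of -0.06 over all genes. Between housings 10 were lower in GF in KO cells and 5 in WT cells, and 0 were higher in either, with medians of -0.97 and -0.35. Over all genes 15.4% were lower and 21.6% higher in KO cells, and 9.44% lower and 17.5% higher in WT cells, with medians of 0.05 and 0.13. The 5 shared by both genotypes were the Src-family kinases Fyn (-2.33 in KO, -1.40 in WT) and Fgr (-1.97, -1.24), the tyrosine kinase Syk (-1.46, -1.04), the exchange factor Vav1 (-1.55, -1.41) and Inpp5d (-1.67, -1.05). Pik3r1 (-1.92), Pik3r5 (-1.36), Plcg2 (-1.40), Lat2 (-1.43) and Csk (-1.32) were past 2-fold in KO cells and between -0.35 and -0.90 in WT cells. The KO and WT housing differences rest on different arrays, and the difference between them was not tested. The lower macrophage sum on KO GF and the higher epithelial sums under GF housing stand beside these counts, and their part was not tested.

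The adaptors come next. Tyrobp, which encodes DAP12, read 7.05 on KO GF, 7.92 on WT GF, 7.24 on KO SPF and 7.29 on WT SPF, lowest on KO GF and highest on WT GF. Fcer1g, the Fc receptor gamma chain, read 5.88, 6.77, 6.46 and 6.97 on the same arrays in that order, and Hcst, which encodes DAP10, read 0.35, 0.72, 1.05 and 1.26. None of the 3 differed by 2-fold in any of the 4 comparisons. Among the phosphatases that ITIMs recruit, Ptpn6 read 2.45 on KO GF, 3.64 on WT GF, 2.79 on KO SPF and 3.74 on WT SPF, lower in KO under both housings. Ptpn11, which encodes SHP-2, read between 2.63 and 2.82 on all 4 arrays. Inpp5d, which encodes SHIP-1, read 0.22 on KO GF, 0.84 on WT GF, 1.90 on KO SPF and 1.89 on WT SPF, lower under GF housing.

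**Figure D4:**
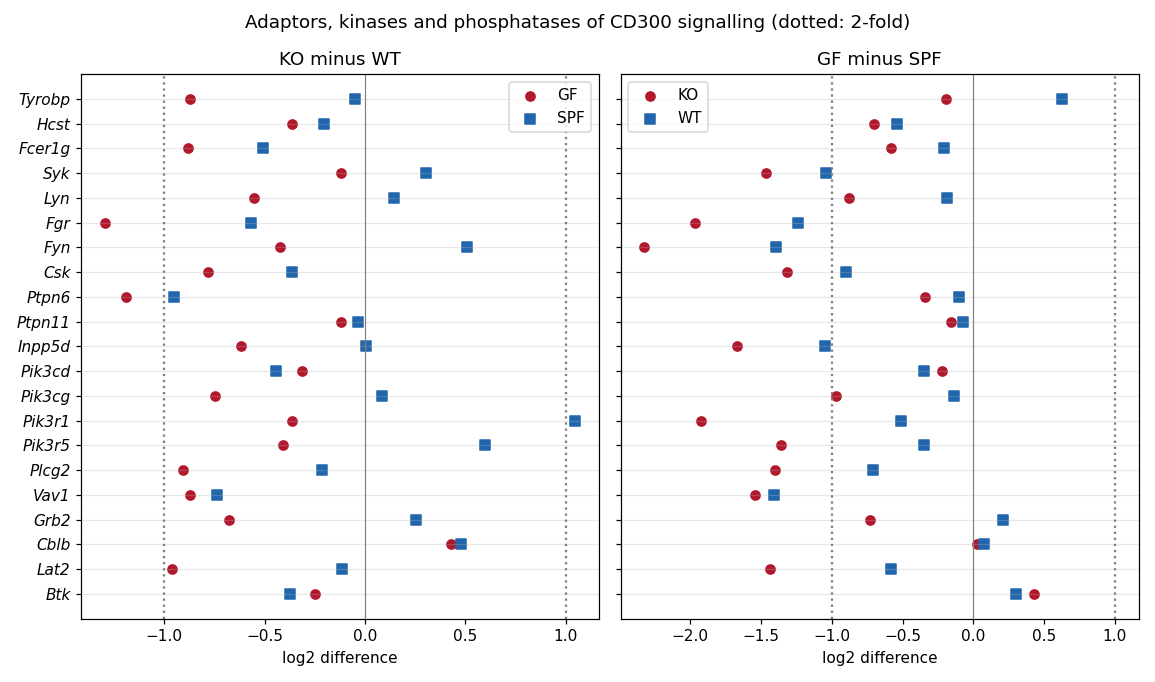
Log2 differences (horizontal axes) of the 21 CD300 signalling genes, KO minus WT on the left under GF (circles) and SPF (squares), and GF minus SPF on the right in KO (circles) and WT (squares), with dotted lines at 2-fold. Fgr and Ptpn6 lie past 2-fold lower in KO under GF, and most genes lie left of 0 in GF minus SPF.

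In a list of 15 genes from TLR4 to interferon beta, 14 were measured in the GF genotype comparison, with 0 at least 2-fold higher and 2 lower in KO, Cd14 (-1.21) and Ifnar2 (-1.31). Under SPF housing 3 of 15 were higher, Cd14 (1.18), Ifnb1 (1.06) and Ifnar1 (1.01), and 0 were lower. Cd14, Ifnar1 and Ifnar2 are named after their values were seen. Between housings 1 gene was higher and 6 were lower in GF in KO cells, and 1 was higher and 5 lower in WT cells. The shares over all genes are those given for the signalling list, with 5.61% higher under SPF housing beside the 3 of 15 and 15.4% and 9.44% lower between housings in KO and WT cells. Tlr4, the receptor for lipopolysaccharide, read 1.14 on KO GF, 1.65 on WT GF, 0.14 on KO SPF and 0.89 on WT SPF, lower in KO under both housings. Traf6, a ubiquitin ligase of that pathway, read -1.28 on KO GF, -0.57 on WT GF, -1.13 on KO SPF and -1.41 on WT SPF. Ifnb1, which encodes interferon beta, read at background on both GF arrays, not well above it, and read 1.61 on KO SPF and 0.54 on WT SPF, 1 of the 3 genes higher in KO.

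All Cd300 genes with a probe other than Cd300lg lie in 1 cluster, and the 10 protein-coding genes on each side were read for comparison. Of these 20 neighbours, 13 were measured under GF housing and none was 2-fold different between KO and WT, beside 8.8% higher and 7.77% lower over all genes, so that a count of 0 of 13 says little. Under SPF housing 2 of 15 were higher in KO, Cdc42ep4 (1.11) and Hid1 (1.99), and 1 was lower, Ush1g. Between housings 5 of 15 were higher and 2 lower in GF in KO cells, and 4 were higher and 1 lower in WT cells, beside 21.6% higher and 15.4% lower over all genes in KO cells and 17.5% and 9.44% in WT cells. Gprc5c (2.40 in KO, 2.59 in WT), Sdk2 (1.26, 1.38) and Slc9a3r1 (1.18, 1.07) were higher in both genotypes, Kif19a (1.09) and Ush1g in KO cells and Hid1 (1.78) in WT cells. Rpl38 (-1.02) was lower in KO cells, and Btbd17, with no GF array well above background, was lower in both. Ush1g was not well above background on KO SPF.

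Genes most like a member in pattern were sought among 12883 genes above background on all 4 arrays, by the root mean square difference of levels after removing each gene's mean. The pattern of Cd300a was common: 126 genes lay within 0.1, led by Ago1 (0.022), Ptges (0.022), Cd22 (0.024), Rgs20 (0.031) and Rtl4 (0.038). For Cd300ld no gene lay within 0.1, and the nearest were Gdf9 (0.31), Dnaja4 (0.32), Gbp2b (0.39), Gpr141 (0.40) and A530064D06Rik (0.40). With 4 arrays such likeness is a description only.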

How the data were processed

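The deposited scanner files of the 4 1-colour Agilent arrays hold, per the file headers, a background-subtracted processed signal intensity per spot from Feature Extraction 10.10.1.1 (protocol GE1_1010_Sep10, design build mm9). Per the labels' protocols, cDNA amplified from total RNA was labelled with Cy3. A deposited series table of intensity values equals the processed signal times a constant per array, 7.96 for KO GF, 7.08 for WT GF, 8.24 for KO SPF and 8.30 for WT SPF, on a linear scale; the rule behind the constants stays unknown. Its column medians were 331.4, 235.7, 216.3 and 237.2 in that order.

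Control spots (3671) and spots with outlier flags were removed from the deposited intensity values, log2 was taken, spots of 1 probe were averaged and the 75th percentile of each array was subtracted. Accessions were matched to RefSeq (GRCm38.p6), which named 27191 of the probes and left 28406 unnamed, and the brightest probe stood for a gene. Where a pairwise comparison is counted, a gene had to be well above background on at least 1 of its arrays. Probes with at least 3 spots had a median SD of 0.0928 to 0.103 on the log2 scale. Limma 3.58.1 (R 4.3.3) used Benjamini-Hochberg adjustment, two-sided, and was tested on simulated data. Figures used Python 3.11.15 and matplotlib 3.10.9, and sequences were aligned with biopython 1.88.

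The members and gene lists were chosen with earlier results of these data known. Genes named are all Cd300 probes, the adaptors and phosphatases of the signalling list with its members 2-fold different in any comparison, Tlr4, Traf6 and Ifnb1, neighbours 2-fold different in any comparison, and the 5 genes nearest in pattern to Cd300a and to the member of widest range. One gene of the signalling list is not reported here and is left out of its counts and medians.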

Additional observations from a re-analysis of the deposited data

Results flagged for a closer look

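Some members differed in sign between the 2 groups of the same contrast, and none of these differences between groups was tested. Cd300ld was lower in KO than in WT under GF housing (-2.60) and had a difference of 0.25 under SPF housing. Cd300lb had a KO minus WT difference of -0.46 under GF and 0.66 under SPF housing. Cd300e had a KO minus WT difference of 0.98 under GF and -0.18 under SPF housing, and a GF minus SPF difference of 0.63 in KO and -0.52 in WT cells. For Cd300a the GF minus SPF difference was 0.13 in KO and -0.28 in WT cells. Each value compares 1 array with 1 array, and the SPF difference of Cd300e and the KO difference of Cd300a are within the scanner error.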

How the results depend on the processing

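No paired analysis was possible because each group has 1 array, so that no replicate numbers pair samples; the limma fits block on housing or genotype instead. No member difference that had been at least 2-fold changed sign. Signs differed for 3 differences each under quantile scaling, cyclic loess scaling and the deposited series table, all of Cd300a or Cd300lg and at most 0.27 in size. In KO against WT under GF housing, 1 member instead of 0 was higher past the threshold under quantile scaling, cyclic loess scaling, the deposited table and a 1.5-fold threshold. With a 1.5-fold threshold 1 member was higher and 2 instead of 1 lower in KO under SPF housing, 1 was higher in GF in KO cells, and 4 instead of 2 were lower in GF in WT cells. The mean of all probes left 0 lower in KO under SPF housing, and normexp on median signals left 1 lower in GF in WT cells. Limma's genotype calls over all genes, 20 as reported, were 0 under normexp, quantile, cyclic loess and the deposited table, 38 when all 4 arrays had to be above background and 76 with an intensity trend and robust prior. Its housing calls, 2489 as reported, were 1301 under normexp, 1585 under cyclic loess and 1566 in the deposited table, where 1 member under cyclic loess and 0 in the deposited table were called, against 3; 4 members were called when all 4 arrays had to be above background. The cause of these changes was not tested. The deposited table also put the median of all genes at 0.08 for KO minus WT under GF and 0.39 for GF minus SPF in KO cells, against -0.20 and 0.05. The split of all genes into 2-fold higher and lower in KO under GF housing, 1382 and 1220 as reported, was 2291 and 571 in the deposited table, 515 and 810 with genes above background on all 4 arrays and 287 and 353 under normexp; with a 1.5-fold threshold it was 2804 and 4059. In KO under SPF housing it was 835 and 983 as reported, 179 and 92 under normexp and 443 and 332 above background on all 4 arrays. In GF against SPF it was 3364 and 2400 in KO cells as reported, 4613 and 1501 in the deposited table, 1769 and 1976 above background on all 4 arrays and 1211 and 1256 under normexp, and in WT cells 2735 and 1478 as reported and 999 and 442 under normexp. Normexp on mean signals was not run, because the files used here hold no mean signal.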
